A study of Mus musculus with 6 samples.

Results

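Cholesterol and fatty acid synthesis was examined as a set of 35 genes in mouse intestinal organoids with and without induction of an active YAP. The genes were picked by symbol from the sterol and fatty acid pathways and from the SREBP system that controls them, and all 35 were found by Entrez ID among the 24594 genes of the count table. They comprised 18 enzymes of the sterol arm, 11 enzymes of the fatty acid arm and 6 SREBP control genes. All 35 passed the low-count filter, which left 12909 genes in the test.

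The organoids were epithelial cultures grown from crypts of the adult proximal small intestine, from the line TetON-hYAP/H2B-mCherry. In this line doxycycline switches on a human YAP with the S127A mutation, described as constitutively active, and a red fluorescent histone. The medium held EGF, Noggin and R-spondin1. Organoids of 3 libraries received 1 µg/ml doxycycline over the 48 h after passaging, the 3 control libraries received none, and both groups carried the transgenes. The promoter behind the inducible system, the genetic background, the age and the sex are not given in the sources used here. The growth protocol speaks of 1 individual per adult sample, but whether the 3 libraries of a group came from separate mice or cultures was not stated for this line. The p-values therefore set each group difference against variation between these libraries, estimated with information shared across genes. That variation is not known to be variation between mice. No organoids without the transgene received doxycycline, and the action of doxycycline itself and that of YAP cannot be told apart.

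Cells make cholesterol from acetyl-CoA through mevalonate, isoprenoids, squalene and lanosterol, and make fatty acids from acetyl-CoA through malonyl-CoA, followed by elongation and desaturation. Both arms are driven by SREBP transcription factors, which wait in the endoplasmic reticulum bound to the escort protein SCAP. When sterols are plentiful, INSIG proteins hold this complex back. When sterols fall, it moves to the Golgi, where proteases free the active factor. The small intestine is a major site of sterol synthesis and of lipid handling.

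The libraries held 8533452 to 16803062 counts. Control replicate 3 stood apart, as its median absolute log2 difference from the other controls was 0.643 to 0.652 over genes, against 0.122 between control replicates 1 and 2 and 0.122 to 0.186 among doxycycline libraries. The 7 epithelial markers summed to 4323 to 5004 CPM in control and 17862 to 19049.7 CPM in doxycycline libraries (5 of 7 rose). Those of mesenchyme reached at most 6 counts per gene and library, those of endothelium 12 and those of immune cells 67. Of 5 fat cell markers Adipoq, Lep and Fabp4 had 0 counts in every library and Plin1 at most 6, while Cidec had 171 to 263 counts in control and 1343 to 1723 in doxycycline libraries and rose (adjusted p = 2.51e-04). Marker levels of most cell types within the epithelium differed between the groups. The summed level of 8 enterocyte markers was 2532 to 4165 CPM in control and 19599 to 20840.5 CPM in doxycycline libraries (6 of 8 rose), that of 5 stem cell markers was 3886 to 5332 and 44.0 to 50.3 CPM (5 of 5 fell), that of 4 Paneth cell markers was 2171 to 4392 and 31.2 to 34.8 CPM (4 of 4 fell), and that of 5 proliferation genes was 542 to 1119 and 244 to 297 CPM (4 of 5 fell). The 5 goblet cell markers summed to 31.2 to 67.9 CPM in control and 1.82 to 2.59 CPM in doxycycline libraries (5 of 5 fell), the 5 enteroendocrine markers to 299 to 551 and 180.3 to 212 CPM (3 of 5 fell), and the 4 tuft cell markers to 17.6 to 22.4 and 18.5 to 22.5 CPM (1 of 4 fell). In bulk samples a change in the share of cells of a type and a change in RNA per cell cannot be told apart. The part of these shifts in the results for the synthesis genes was not tested.

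With doxycycline, 16 of the 35 genes rose, 2 fell and 17 did not pass the test. Among all 12909 genes, 45.3% passed, with 21.7% higher and 23.6% lower (edgeR quasi-likelihood test, adjusted p under 0.05). The sterol arm had 8 of 18 genes higher and 0 lower, led by Hsd17b7, Sqle, Fdps and Hmgcs1. In the fatty acid arm, Scd1, Scd2, Me1, Elovl6 and Elovl5 rose, while the desaturase genes Fads1 and Fads2 fell. Among the control genes, Insig1, Insig2 and Stard4 rose. The genes of the transcription factors, Srebf1 and Srebf2, and of their escort, Scap, did not pass. No sterol gene passed in the lower direction at an unadjusted p under 0.05, nor with DESeq2 or limma-voom after adjustment. Acat2 and Tm7sf2 were called lower with total counts, and Acat2 also without control replicate 3. In the fatty acid arm 4 genes had an unadjusted edgeR p under 0.05 in the lower direction, namely Fads1, Fads2, Acly and Fasn.

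The median log2 fold change was 0.70 in the sterol arm, 0.66 over the control genes and 0.49 in the fatty acid arm, against -0.08 over all genes tested. With total counts as the only scaling, these medians were 0.26, 0.22, 0.05 and -0.52. The sterol arm then had 5 genes higher and 2 lower, the control genes 2 higher and 1 lower and the fatty acid arm 3 higher and 4 lower, in a fit where 13.5% of all genes were higher and 39.7% lower. Every direction given here is on the TMM scale. Leaving out control replicate 3 moved more calls. Without it, 16 of 18 sterol genes rose and 1 fell, 5 of 6 control genes rose and 1 fell, and 7 of 11 fatty acid genes rose and 4 fell, in a fit where 34.9% of all 13278 genes tested rose and 35.1% fell. This fit rests on control replicates 1 and 2 alone, whose median absolute log2 difference was 0.122. Whether they came from separate cultures was not stated. The small adjusted p-values of this fit, given by gene below, hold for these libraries only.

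**Figure D1:**
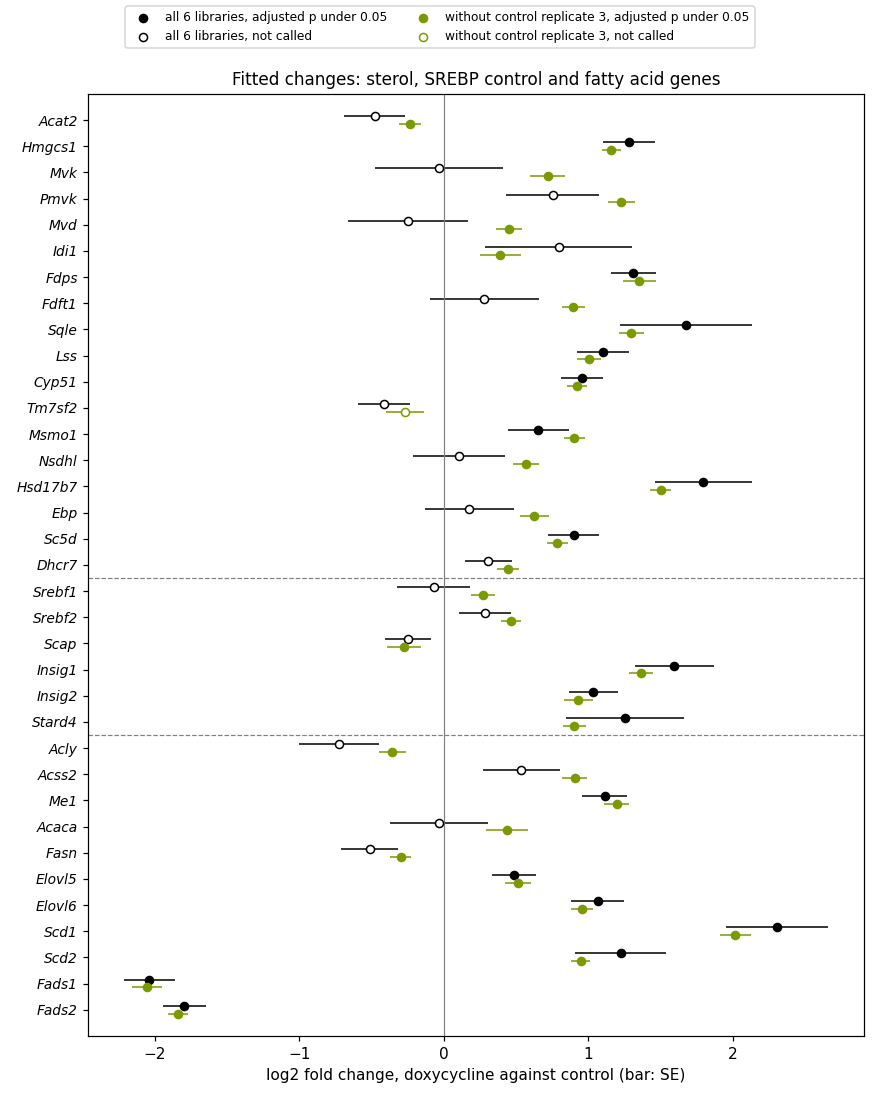
Fitted log2 fold change (doxycycline against control, x axis) with its SE for the 35 genes (y axis), from all 6 libraries (black) and without control replicate 3 (green); filled points had an adjusted p under 0.05. Dashed lines separate the sterol arm (top), the SREBP control genes and the fatty acid arm. Fads1 and Fads2 stand alone near -2 in both fits, and only Tm7sf2 was not called without control replicate 3.

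Promoters are shown because NF-Y, which binds CCAAT boxes, and the SREBPs, which bind sterol regulatory elements and some E-boxes, are known to act together on genes of these pathways. RefSeq windows (GRCm38.p6) were found for 28 of the 35 genes, and the 250 bases before each start were searched on both strands, counting a gene if any of its starts held the motif. The 7 genes with no window were Fdps, Fdft1, Sqle, Stard4, Scd1, Scd2 and Fads1. Motifs are in capitals in the examples below, which were trimmed where an annotated exon overlaps, and sequences run 5′ to 3′ along the gene. Hmgcs1 is the member with the full sterol element, Insig1 combines an E-box with a CCAAT box (its short sterol element lies in the trimmed stretch), Mvk has the most CCAAT boxes, and Fasn, with overlapping boxes on opposite strands, is a gene that did not pass.
Hmgcs1 (chr13:119690101-119690350, plus strand): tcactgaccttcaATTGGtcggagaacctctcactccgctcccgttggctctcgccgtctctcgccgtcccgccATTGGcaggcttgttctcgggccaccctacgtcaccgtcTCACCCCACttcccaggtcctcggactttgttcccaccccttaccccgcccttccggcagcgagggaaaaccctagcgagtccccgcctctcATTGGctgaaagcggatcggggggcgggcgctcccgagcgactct
Insig1 (chr5:28071162-28071362, plus strand): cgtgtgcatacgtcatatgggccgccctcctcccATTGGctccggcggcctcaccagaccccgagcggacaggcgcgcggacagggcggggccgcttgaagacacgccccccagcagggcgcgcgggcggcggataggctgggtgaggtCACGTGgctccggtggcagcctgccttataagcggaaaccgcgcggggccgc
Mvk (chr5:114444061-114444268, plus strand): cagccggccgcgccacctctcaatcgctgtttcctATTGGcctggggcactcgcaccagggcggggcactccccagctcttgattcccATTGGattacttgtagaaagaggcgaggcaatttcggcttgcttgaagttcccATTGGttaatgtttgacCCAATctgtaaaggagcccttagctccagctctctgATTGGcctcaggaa
Fasn (chr11:120824548-120824797, minus strand): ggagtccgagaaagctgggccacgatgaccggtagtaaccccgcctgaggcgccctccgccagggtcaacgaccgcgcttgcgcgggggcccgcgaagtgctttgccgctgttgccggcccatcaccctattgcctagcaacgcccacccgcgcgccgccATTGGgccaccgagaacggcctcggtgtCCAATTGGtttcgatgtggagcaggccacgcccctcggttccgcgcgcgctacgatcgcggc

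A CCAAT box (CCAAT) was present in 22 of 28 members (78.6%), in 37.5% of all 27025 genes with a window and in 40.6% of the 10267 of them that were tested. It was in 14 of 15 sterol genes, 4 of 5 control genes and 4 of 8 fatty acid genes. By response, 10 of the 11 genes that rose and had a window held it, as did 12 of the 16 that did not pass, and the window of Fads2, which fell, held none. The search covered whole windows, annotated exons included. In the Fads2 window 243 bases lie in an annotated Fads2 exon, so its lack of a box cannot be read as a promoter trait. All 250 bases searched for Idi1, counted among the genes with a box, lie in exons of Gm48574 or Idi1. The strict sterol element TCACNCCAC was in 1 member, Hmgcs1, and in 1.22% of all genes. A shorter form, CACNCCAC, which every strict match also contains, was in Acat2, Hmgcs1 and Insig1 (3 of 28, against 6.05% of all genes). The E-box CACGTG was in 6 members (21.4%, against 6.86% of all and 9.93% of tested genes), namely Dhcr7, Elovl5, Hsd17b7, Insig1, Sc5d and Scap. The TEAD motif CATTCC, the site of the DNA-binding partners of YAP, was in Acss2 and Me1 (7.14%, against 14.4%). These are letter matches in a short window and not measured binding sites.

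The upper part of the sterol arm runs from acetyl-CoA to farnesyl diphosphate. Hmgcs1 (Entrez 208715, chromosome 13, 119690351 to 119708260, GRCm38.p6), which makes HMG-CoA, had 787, 777 and 573 CPM in control replicates 1, 2 and 3 and 1708, 1749.5 and 1735 CPM in the doxycycline libraries. The groups did not overlap (log2 change 1.28, SE 0.181, adjusted p = 0.00153 by edgeR). It was the most abundant transcript of the arm per length, at 206 and 499.7 CPM per kb of transcript. It held 16.1 to 22.7% of the arm's counts in control libraries and 25.7 to 26.5% with doxycycline.

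Fdps, which makes farnesyl diphosphate, had 28.5, 25.7 and 28.7 CPM in the controls and 60.4, 74.02 and 71.7 CPM with doxycycline (log2 change 1.31, SE 0.158, adjusted p = 8.09e-04). Each doxycycline library was above each control. Its call is uncertain as to source, because 86.4% of the 50-base stretches of its transcript also occur in transcripts of other genes, mainly gene models such as Gm43738 and Gm3571. Acat2, the cytosolic thiolase that makes acetoacetyl-CoA, had 229.6, 237 and 355 CPM in the controls and 211, 182 and 196 CPM with doxycycline. Its groups did not overlap, with doxycycline lower, but it did not pass (log2 change -0.48, SE 0.212, adjusted p = 0.106). It was called lower with total counts (-0.92, adjusted p = 0.0107) and without control replicate 3 (-0.23, adjusted p = 0.0125). It shares 45.9% of its 50-base stretches with other genes, chiefly its close copy Acat3.

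The kinase genes Mvk and Pmvk and the decarboxylase gene Mvd convert mevalonate to the isoprenoid unit. For Mvk the control libraries gave 25.03, 30.7 and 83.6 CPM and the doxycycline libraries 48.3, 41.1 and 46.4 CPM. The doxycycline values lay above control replicates 1 and 2 and below replicate 3. Mvd had the same layout, with 55.2, 57.1 and 159 CPM against 75.2, 74.2 and 78.4 CPM. Neither passed, with log2 changes of -0.03 and -0.25 (adjusted p = 0.960 and 0.657). Without control replicate 3, where 34.9% of all genes tested were called higher, both turned and were called higher, at 0.72 (adjusted p = 2.75e-05) and 0.45 (1.497e-04). Pmvk went from 63.8, 68.5 and 141 CPM to 136, 160.4 and 163 CPM and also passed only without that library (from 0.75, adjusted p = 0.0961, to 1.23, 5.30e-10).

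Idi1, the isomerase of isoprenoid units, showed the opposite kind of departure. It had 61.6, 68.05 and 15.2 CPM in the controls, where replicate 3 was the low library, and 65.6, 98.2 and 88.1 CPM with doxycycline. Its log2 change was 0.79 (SE 0.508, adjusted p = 0.240), and 0.39 (adjusted p = 0.0282) without control replicate 3. Its values are uncertain as to source, since 30.5% of its 50-base stretches occur in other genes.

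**Figure D2:**
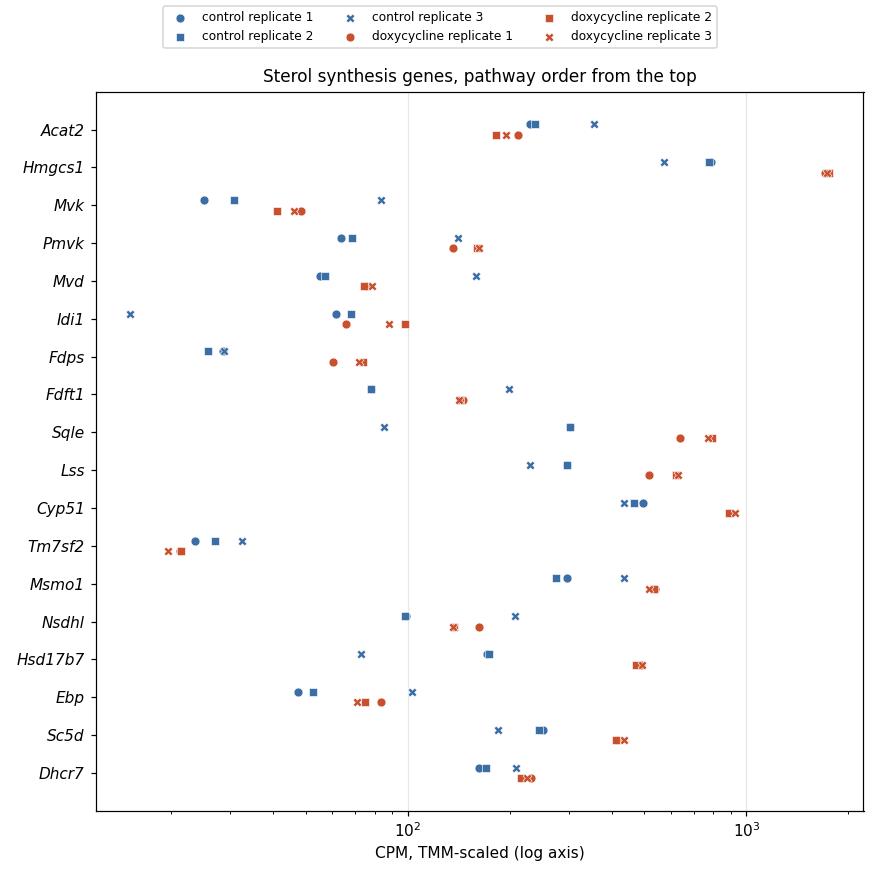
CPM on a log axis (x) for the 18 sterol synthesis genes (y, in pathway order), with 1 point per library, controls in blue and doxycycline in red; circles, squares and crosses are replicates 1, 2 and 3. Control replicate 3 (blue cross) lies away from the other controls, above them for Mvk, Mvd and Fdft1 and below them for Idi1, Sqle and Hsd17b7.

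The middle of the arm joins farnesyl units into squalene and closes the ring. Sqle, the squalene epoxidase and a slow step of the pathway, had 301, 302 and 85.3 CPM in the controls and 638, 791 and 769 CPM with doxycycline. All doxycycline libraries exceeded all controls, although control replicate 3 was far below the other 2. The log2 change was 1.68 (SE 0.458, adjusted p = 0.0228), and 1.30 (adjusted p = 2.21e-10) without control replicate 3. The call was lost without any single doxycycline library (adjusted p = 0.0557 to 0.0725) and with total counts (0.053).

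Lss, the cyclase that makes lanosterol, rose from 296, 295 and 229.9 to 516, 621 and 627 CPM (log2 change 1.10, SE 0.179, adjusted p = 0.00272). Fdft1, squalene synthase, had 77.8, 78.2 and 199 CPM in the controls and 146, 143 and 142 CPM with doxycycline. Its doxycycline libraries lay close together, above control replicates 1 and 2 and below replicate 3. It did not pass (log2 change 0.28, adjusted p = 0.579), but without control replicate 3 the change was 0.89 (adjusted p = 6.30e-09). Other genes, mainly Ctsb, share 30.7% of its 50-base stretches.

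The lower part turns lanosterol into cholesterol. Hsd17b7 (chromosome 1, 169949535 to 169969242), a ketosteroid reductase that acts in removal of the C4 methyl groups, had the largest fitted rise of the arm. It went from 171, 175 and 72.7 CPM in the controls to 489, 473 and 493 CPM (log2 change 1.80, SE 0.336, adjusted p = 0.00522). The groups were far apart, and the call held without control replicate 3 (adjusted p = 6.90e-13). Cyp51, the lanosterol demethylase, rose from 496, 467 and 437 to 898, 889 and 926 CPM (log2 change 0.95, SE 0.145, adjusted p = 0.00209). Sc5d, a sterol desaturase, rose from 250.3, 244 and 185 to 415, 414 and 437 CPM (log2 change 0.90, SE 0.174, adjusted p = 0.00557), which did not pass with total counts (adjusted p = 0.0602).

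Msmo1, the C4 methyl oxidase, had 296, 275 and 437 CPM in the controls and 538, 532 and 517 CPM with doxycycline. The groups did not overlap and the gene rose (log2 change 0.66, SE 0.210, adjusted p = 0.0401). That call was among the least stable, since it was lost without control replicate 1 or 2 or any doxycycline library (adjusted p = 0.106 to 0.121) and with total counts (0.421). With control replicate 3 left out, the change was 0.90 (adjusted p = 1.15e-09).

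The remaining enzymes did not pass. Nsdhl (99.02, 97.99 and 207 CPM in the controls, 162, 137 and 136 CPM with doxycycline), which removes carboxyl carbons at C4, and Ebp (47.3, 52.6 and 103 CPM in the controls, 83.2, 75.04 and 70.7 CPM with doxycycline), the sterol isomerase, each had control replicate 3 as their highest library. Dhcr7, a sterol reductase late in the pathway, had 162, 170.0 and 209.7 CPM in the controls and 231, 216 and 225 CPM with doxycycline, with each doxycycline library above each control (log2 change 0.31, adjusted p = 0.162). Without control replicate 3 all 3 were called higher, at 0.57, 0.63 and 0.44 (adjusted p = 1.33e-05, 1.44e-05 and 3.43e-05). Tm7sf2, a sterol C14 reductase, pointed down. It had 23.6, 26.9 and 32.5 CPM in the controls and 21.2, 21.5 and 19.6 CPM with doxycycline (log2 change -0.41, adjusted p = 0.101) and missed the threshold without control replicate 3 as well (adjusted p = 0.0736), but was called lower with total counts (-0.86, adjusted p = 0.00736).

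Taking all sterol genes together, 9 had all doxycycline values above all control values and 2 had them below, where 30.0% and 31.3% of all genes tested did. Their summed level was 3472, 3447 and 3552 CPM in the controls and 6443, 6691 and 6740 CPM with doxycycline. In this sum control replicate 3 did not stand apart, although single genes in it lay between -2.09 (Idi1) and 1.59 (Mvk) on the log2 scale from the mean of the other controls. Of all 35 genes, 19 were higher and 16 lower in that library than in the other controls, and 13 differed by more than 2-fold. Of the 16 genes called higher, 12 were lower in it. Of the 17 genes not called, 15 were higher in it. This split is partly built in, because the calls were made with that library in the fit, and it was not counted over all genes.

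Of the control genes, both INSIG genes and Stard4 rose. Insig1 (chromosome 5, 28071412 to 28078662), itself a target of the SREBPs, had 584, 573 and 307 CPM in the controls and 1298, 1560.3 and 1566 CPM with doxycycline (log2 change 1.60, SE 0.275, adjusted p = 0.00375). Insig2, a less sterol-dependent relative, had 33.5, 31.3 and 24.9 CPM in the controls and 64.2, 59.2 and 60.4 CPM with doxycycline (log2 change 1.03, SE 0.169, adjusted p = 0.00279). Both genes had doxycycline libraries above all controls, and neither call was lost in any of the 15 alternatives. The pair differed widely in level, as Insig1 stood at 181 and 547 CPM per kb in the 2 groups and Insig2 at 11.1 and 22.7. Within a library, the count ratio of Insig1 to Insig2 was 17.5, 18.3 and 12.4 in the controls and 20.2, 26.4 and 25.9 with doxycycline, so the ratio was higher in every doxycycline library.

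Stard4, which carries sterols between membranes, had 662, 650.2 and 216 CPM in the controls and 1079, 1239 and 1331 CPM with doxycycline. It rose (log2 change 1.25, SE 0.410, adjusted p = 0.0423). Control replicate 3 was the low library, and without it the change was 0.90 (adjusted p = 6.96e-09). Leaving out any doxycycline library ended the call (adjusted p = 0.0887 to 0.116), as did total counts (0.127).

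Srebf2, whose product chiefly drives sterol genes, had 329, 334 and 455 CPM in the controls and 459, 446 and 457 CPM with doxycycline. Control replicate 3 lay within the doxycycline range, and the gene did not pass (log2 change 0.29, adjusted p = 0.231). It was called higher without that library (0.47, adjusted p = 5.95e-06). Srebf1, whose product chiefly drives fatty acid genes, had 88.6, 93.1 and 160.3 CPM in the controls and 111, 102 and 113 CPM with doxycycline, a log2 change of -0.07 (adjusted p = 0.839) that turned to 0.27 (adjusted p = 0.00735) without control replicate 3. Gene counts do not separate the isoforms of Srebf1. Per library, Srebf1 counts were 0.269, 0.279 and 0.353 of those of Srebf2 in the controls and 0.242, 0.227 and 0.246 with doxycycline.

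Scap had 36.7, 35.3 and 33.3 CPM in the controls and 33.1, 28.96 and 26.8 CPM with doxycycline, the lowest level per length of the control genes. Its groups did not overlap, with doxycycline lower, but it did not pass (log2 change -0.25, adjusted p = 0.238). It was called lower with total counts (adjusted p = 0.0115) and without control replicate 3 (0.0458).

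The fatty acid arm opens with the supply of acetyl-CoA and NADPH. Acly, which splits citrate to acetyl-CoA, had 125, 122 and 227 CPM in the controls and 107, 84.9 and 93.99 CPM with doxycycline. Fasn, the fatty acid synthase, had 231, 225 and 329.9 CPM in the controls and 176, 184 and 191 CPM with doxycycline. In both genes all doxycycline values were below all controls, yet neither passed (log2 change -0.72 and -0.51, adjusted p = 0.0693 and 0.0673). Each was called lower, by a smaller amount, without control replicate 3 (-0.36 and -0.30, adjusted p = 0.00199 and 0.00139), and with total counts (adjusted p = 0.012 and 0.00595).

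Acaca, the carboxylase that makes malonyl-CoA, had 25.3, 24.8 and 53.3 CPM in the controls and 37.8, 26.2 and 36.7 CPM with doxycycline, with overlapping groups. Its log2 change of -0.04 (adjusted p = 0.943) turned to 0.44 (0.0113) without control replicate 3. A copy named Gm5182 shares 52.6% of its 50-base stretches. Acss2, which makes acetyl-CoA from acetate, had 62.2, 58.6 and 112 CPM in the controls and 109, 111 and 116 CPM with doxycycline and was called higher only without control replicate 3 (log2 change 0.53, adjusted p = 0.143, against 0.91 and 1.18e-08). Me1, the malic enzyme that supplies NADPH, rose from 88.2, 102 and 108 to 219, 222 and 204 CPM (log2 change 1.11, SE 0.156, adjusted p = 0.00147). In Me1 the controls were close together and all below the doxycycline libraries, and no alternative ended the call, though 32.8% of its 50-base stretches occur in other genes.

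The stearoyl-CoA desaturases put the first double bond into saturated fatty acids. Scd2 (chromosome 19, 44293676 to 44306864) was the most abundant member, with 4889, 4695 and 2173 CPM in the controls and 8540.0, 9521 and 9422 CPM with doxycycline (log2 change 1.23, SE 0.315, adjusted p = 0.0182). It held 46.3 to 62.9% of the arm's counts in control libraries and 63.6 to 64.9% with doxycycline. Its call was lost without any single doxycycline library (adjusted p = 0.0525 to 0.0636) and with total counts (0.0693), and without control replicate 3 its change was 0.95 (adjusted p = 1.46e-10).

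Scd1 (chromosome 19, 44394450 to 44407709) had the largest rise of all 35 genes. It went from 804, 742 and 329.7 CPM to 2601, 3350.3 and 3337 CPM (log2 change 2.31, SE 0.354, adjusted p = 0.00232), and from 129 to 641 CPM per kb, against 718 to 1679 for Scd2. The count ratio of Scd1 to Scd2 within a library was 0.164, 0.158 and 0.152 in the controls and 0.305, 0.352 and 0.354 with doxycycline. Control replicate 3 did not depart in this ratio, and the groups were well apart. The transcripts share few 50-base stretches with other genes (4.66% of Scd1 and 4.01% of Scd2). Scd4, which lies between them, had a mean of 0.872 CPM in the controls and 1.22 CPM with doxycycline (adjusted p = 0.446), and Scd3 did not pass the low-count filter.

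The elongases add carbons after the synthase. Elovl6, which extends saturated chains, rose from 469, 545 and 382 to 916, 994 and 1009 CPM (log2 change 1.06, SE 0.182, adjusted p = 0.00339). Elovl5, which extends polyunsaturated chains, rose from 127, 125 and 129.7 to 198, 159.5 and 177 CPM (log2 change 0.49, SE 0.153, adjusted p = 0.0365). All Elovl5 controls lay below all doxycycline libraries, but 10 of 15 alternatives ended the call, with total counts (log2 change 0.05, adjusted p = 0.823) and each library left out except control replicate 3 (adjusted p = 0.073 to 0.137) among them.

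Fads1 and Fads2, which encode the delta-5 and delta-6 desaturases of polyunsaturated fatty acids, went the other way. Fads1 (chromosome 19, 10182877 to 10196874) had 379, 346 and 342 CPM in the controls and 100.0, 86.1 and 73.5 CPM with doxycycline (log2 change -2.04, SE 0.177, adjusted p = 2.37e-04). Fads2 (chromosome 19, 10062765 to 10101503) had 570.3, 571 and 507 CPM in the controls and 156, 160.0 and 158 CPM with doxycycline (log2 change -1.80, SE 0.148, adjusted p = 1.92e-04). The groups were widely apart, control replicate 3 lay near the other controls, and no alternative ended either call. Leaving out single libraries moved the log2 change only between -2.15 and -1.92 for Fads1 and between -1.84 and -1.77 for Fads2. The ratio of Fads1 to Fads2 counts was 0.665, 0.606 and 0.675 in the controls and 0.641, 0.538 and 0.466 with doxycycline, and these ranges overlapped.

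Fads3 (chromosome 19, 10040855 to 10060113), the third gene of this cluster and a relative with a different substrate, rose from 48.02, 55.5 and 53.8 to 99.5, 91.5 and 95.7 CPM (log2 change 0.87, SE 0.144, adjusted p = 0.00300). It lies next to Fads2, so neighbours in the cluster moved in opposite directions. No 50-base stretch of Fads1 and 0.161% of those of Fads2 occur in other genes. The count ratio of Elovl5 to Elovl6 was 0.270, 0.230 and 0.340 in the controls and 0.216, 0.160 and 0.175 with doxycycline, with every doxycycline library lower.

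**Figure D3:**
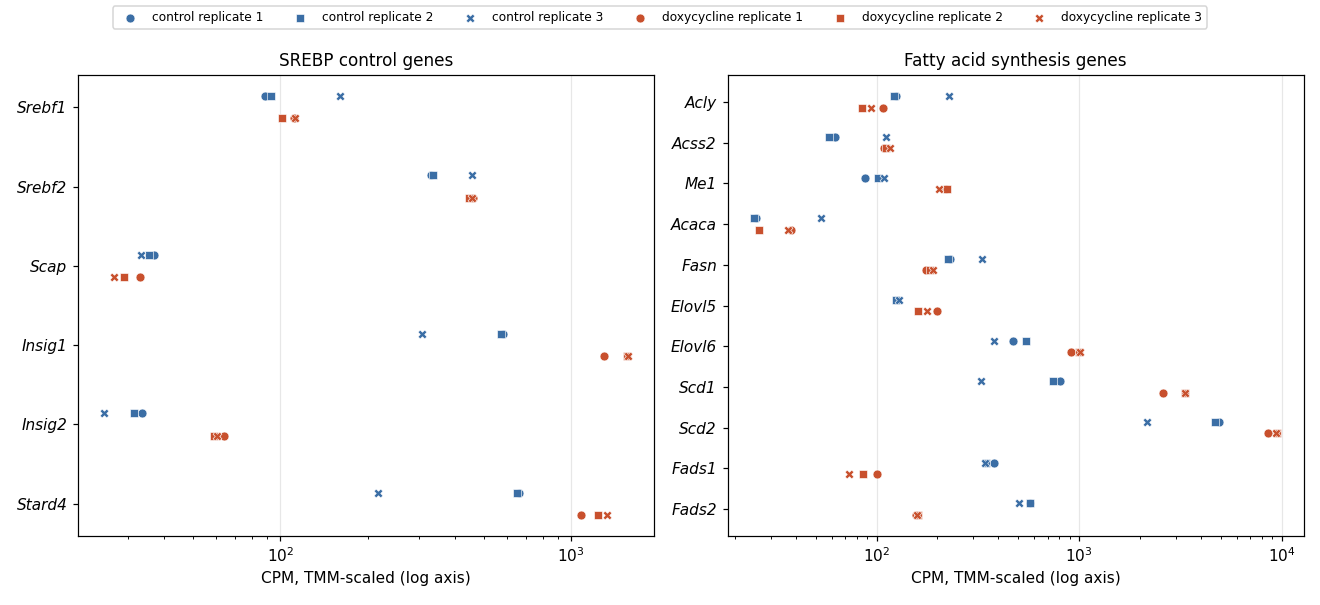
CPM on a log axis (x) for the 6 SREBP control genes (left) and the 11 fatty acid synthesis genes (right), 1 point per library, with controls in blue, doxycycline in red and symbols for replicates 1 to 3. Fads1 and Fads2 are the genes where doxycycline lies far to the left, and Scd1 shows the widest gap to the right.

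In sum the fatty acid genes stood at 7769, 7555 and 4694 CPM in the controls and 13161, 14899 and 14818 CPM with doxycycline, and control replicate 3 was the low library. The ratio of summed sterol to summed fatty acid counts was 0.447, 0.456 and 0.757 in the controls and 0.490, 0.449 and 0.455 with doxycycline. Control replicate 3 was the high library, and the other 5 lay between 0.447 and 0.490. In the fatty acid arm, 5 of 11 genes had all doxycycline values above all controls and 4 had them below, where 30.0% and 31.3% of all genes tested did. Of those 4, Acly and Fasn did not pass the test.

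**Figure D4:**
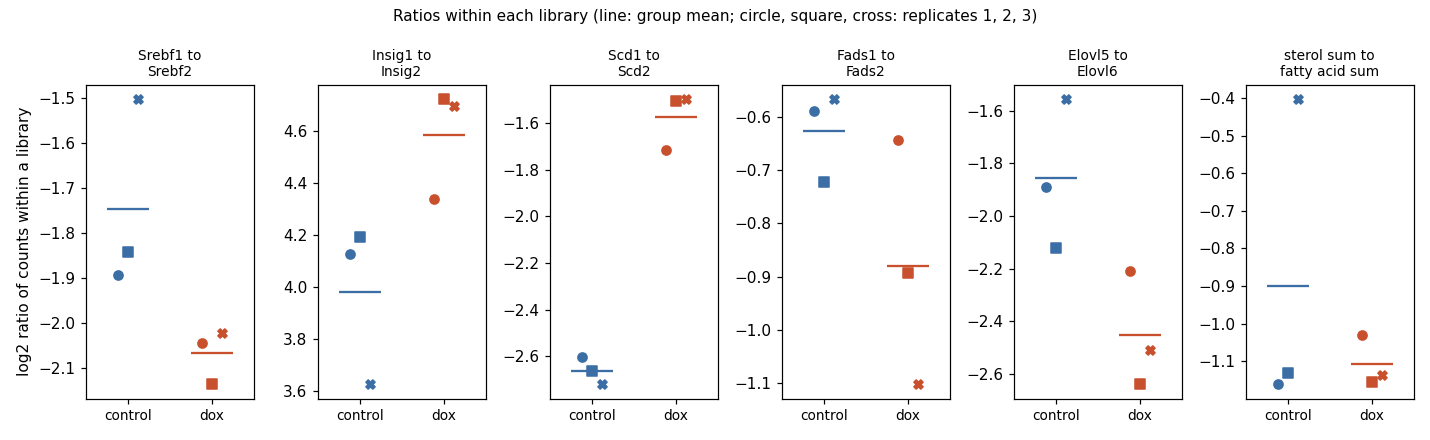
Log2 ratio of counts within each library (y axis, separate scale per panel) for 5 gene pairs and for the summed sterol against the summed fatty acid genes; points are libraries and lines are group means, with controls in blue and doxycycline in red. Scd1 to Scd2 separates the groups by 1.09 with little spread, while the sterol to fatty acid ratio is set apart only in control replicate 3.

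Other genes of the pathways were counted from lists drawn up by function, against 21.7% higher and 23.6% lower over all genes. Of 17 genes for SREBP transport, cleavage and turnover, 5 rose and 2 fell (3 and 4 with total counts, 9 and 3 without control replicate 3). The genes with the smallest adjusted p were the coat proteins of vesicles that leave the endoplasmic reticulum, Sec23a (115 ± 10.3 to 401 ± 9.14 CPM, mean ± SD, n = 3), Sec24d (48.6 ± 8.83 to 97.5 ± 5.41 CPM) and Sec24a (97.1 ± 22.9 to 218 ± 22.98 CPM). Of 7 redox partners and related sterol genes, 2 rose and 2 fell (5 and 2 without control replicate 3). The cytochrome b5 gene Cyb5b (1941 ± 548 to 5073 ± 212 CPM) and the heme protein gene Pgrmc1 (417 ± 139 to 1265 ± 46.2 CPM) rose. Lbr, a nuclear membrane protein that also has sterol C14 reductase activity, fell from 182 ± 12.7 to 50.9 ± 3.38 CPM, with an adjusted p of 2.00e-04 by edgeR.

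Of 15 genes of the isoprenoid branches, 1 rose and 4 fell (0 and 7 with total counts, 5 and 5 without control replicate 3), with Pdss1 of coenzyme Q synthesis lower (40.5 ± 12.7 to 14.99 ± 1.47 CPM), Coq2 lower (74.5 ± 25.02 to 39.7 ± 5.44 CPM) and the prenylcysteine methyltransferase gene Icmt higher (123 ± 27.8 to 230.0 ± 12.4 CPM). Leaving out doxycycline replicate 2 or 3 ended the calls of Coq2 and Icmt, and so did leaving out doxycycline replicate 1 for Coq2. Of 8 measured genes of NADPH supply, 2 rose, the hexose-6-phosphate dehydrogenase gene H6pd (128 ± 25.4 to 476 ± 30.8 CPM) and the transketolase gene Tkt (112 ± 8.58 to 231 ± 15.5 CPM), and the mitochondrial malic enzyme gene Me2 fell (50.9 ± 14.7 to 29.3 ± 0.992 CPM). The Me2 call ended without any single doxycycline library, and without control replicate 3 this list had 5 higher and 1 lower. Of 16 measured further genes of fatty acid synthesis and elongation (22 listed), 2 rose and 4 fell (1 and 6 with total counts, 6 and 4 of 17 without control replicate 3), among them Fads3 and the dehydratases Hacd3 (187 ± 19.6 to 82.2 ± 9.10 CPM) and Hacd1 (7.998 ± 1.04 to 3.74 ± 0.525 CPM).

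Downstream, 11 of 15 measured genes of fatty acid activation and glycerolipid synthesis rose and 2 fell. Their median log2 change was 1.23, and total counts gave 10 higher and 2 lower. Dgat1, which makes triglyceride, rose from 177 ± 6.09 to 423 ± 30.4 CPM, the lipin gene Lpin2 from 63.5 ± 16.2 to 229 ± 24.2 CPM and the acyl-CoA synthetase gene Acsl5 from 65.8 ± 15.1 to 171 ± 11.5 CPM. Enterocytes make triglyceride for lipoproteins, and 6 of their 8 markers rose, as given above, while Sis and Fabp2 did not pass (adjusted p = 0.0640 and 0.459). The part of this shift in the counts of the list was not tested. Of 14 genes of lipogenic transcription factors, 3 rose and 4 fell (0 and 8 with total counts, 4 and 6 without control replicate 3). Mlxipl, which encodes the sugar-responsive factor ChREBP, fell from 128 ± 6.23 to 50.5 ± 5.01 CPM, with an adjusted p of 6.41e-04 by edgeR. Nfya, a subunit of NF-Y, fell from 74.3 ± 10.96 to 41.3 ± 1.99 CPM and Rxra rose from 188 ± 32.5 to 320.3 ± 21.7 CPM, a call lost without doxycycline replicate 2 or 3. Of 16 measured genes of sterol efflux, esterification and LXR response, 5 rose and 2 fell (2 and 4 with total counts, 10 and 2 of 17 without control replicate 3). Lipa, the lysosomal lipase, rose from 49.1 ± 3.75 to 249 ± 16.4 CPM, the sterol transporter gene Abcg5 rose from 20.8 ± 5.41 to 48.4 ± 1.77 CPM, and the sterol esterification gene Soat1 fell from 196 ± 21.6 to 46.4 ± 4.32 CPM, with an adjusted p of 1.91e-04 by edgeR.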

How the data were processed

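Whole-number read counts per Entrez gene were deposited by the authors for 6 libraries. Per the labels' protocols, RNA was column-purified and sequenced on an Illumina NextSeq from TruSeq RNA libraries. Per the submitters' processing notes the build was mm10. Aligner, counting tool, annotation, strand use and filters are not given in the sources used here. RefSeq (GRCm38.p6) gave symbols for 24570 IDs; the other 24 kept their IDs and stayed in the fit.

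The test was that of edgeR 4.0.16 under R 4.3.3: filter by group, TMM scaling, robust quasi-likelihood F-test, Benjamini-Hochberg adjustment over 12909 genes, threshold 0.05. A gene that rose or fell passed it. The SE comes from the F statistic. CPM use TMM-scaled library sizes, and levels per kb divide them by the longest basic protein-coding transcript of GENCODE vM21. Shares of 50-base stretches, on both strands, use the same transcript. Alternatives were RLE factors, total counts, no filter, 10 counts in 3 libraries, DESeq2 1.42.0, limma-voom (limma 3.58.1), the replicate number as a block, a threshold of 0.01, a test against a 1.5-fold change, and each library left out. The fit was also run on simulated counts with the same dispersion for every gene and no deviating library. That setting is simpler than these data, where control replicate 3 stood apart.

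The members and lists were chosen with earlier results of these data known. All members are named, and of each further list the 3 called genes with the smallest adjusted p. Soat2, Gpam, Agpat2, Plin2 and Plin3 are named outside this rule. Scd3 and Scd4, the gene models Gm5182, Gm43738 and Gm3571, Acat3 and Ctsb were named after values were seen. Some related genes are not analysed here.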

Additional observations from a re-analysis of the deposited data

How the results depend on the processing

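Over 15 alternatives, no gene of the set that was called changed direction. The calls of Hmgcs1, Fdps, Lss, Cyp51, Hsd17b7, Insig1, Insig2, Me1, Elovl6, Scd1, Fads1 and Fads2 held in all 15. Without control replicate 3, Mvk (0.72), Mvd (0.45), Srebf1 (0.27) and Acaca (0.44) turned from negative log2 changes to called rises, and leaving out single libraries otherwise took these as low as -0.34, -0.51, -0.22 and -0.23. The cause was not tested. Leaving out each library in turn gave 3836 to 9286 genes called in all, 6 to 17 in the sterol arm, 2 to 6 control genes and 5 to 11 in the fatty acid arm, each highest without control replicate 3, against 5850, 8, 3 and 7 with all libraries. Without doxycycline replicate 2 or 3 the total was 3862 and 3836. A threshold of 0.01 gave 3477 genes in all, and the test against a 1.5-fold change gave 3626, with 5 in the sterol arm, since both ask for more. With total counts, 25.4% of the calls over all genes were higher, against 47.9%. The replicate block gave 4509 genes, with 7, 2 and 6 of the set's groups. Deviations of same-numbered libraries from their group means had correlations of -0.30, 0.12 and -0.19 over genes. With 3 libraries per group and control replicate 3 far from the others, these values cannot show whether the numbers pair the samples. The lowest count of any member in a library was 151 (Idi1, control replicate 3), so counting error is largest there.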

Other observations

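Some steps are served by 2 genes, and these pairs were chosen with their values in view. Sterol C14 reduction can be carried out by Tm7sf2 and by Lbr. Lbr had 174, 175 and 197 CPM in the controls and 54.4, 47.7 and 50.7 CPM with doxycycline, an edgeR log2 change of -1.84 (adjusted p = 2.00e-04), while Tm7sf2 had a log2 change of -0.41 and did not pass (adjusted p = 0.101). Sterol esterification can be carried out by Soat1 and Soat2. Soat1 had 215, 199.8 and 172 CPM in the controls and 41.5, 48.8 and 49.1 CPM with doxycycline, whereas Soat2 had 29.2, 25.2 and 65.8 CPM in the controls and 42.2, 37.7 and 39.7 CPM with doxycycline (log2 change 0.00, adjusted p = 0.994). Gpam and Agpat2, also chosen with their values in view, do not share a step but act in consecutive steps of glycerolipid synthesis. Gpam, of the first step, fell (127, 122 and 68.9 to 36.5, 36.3 and 35.97 CPM, adjusted p = 0.00295). Agpat2, of the next step, rose (62.9, 66.7 and 145 to 456, 437 and 424 CPM, adjusted p = 0.00236). The differences between the genes set side by side here were not tested.

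The lipid droplet genes Plin2, Plin3 and Cidec rose, where 21.7% of all genes tested did. No list of lipid droplet genes was counted, so these genes do not stand for the class. Plin2 and Plin3 were not picked by the rule used to name genes of the other lists. Plin2 went from 29.7, 33.02 and 70.7 to 141, 117 and 126 CPM (adjusted p = 0.0111) and Plin3 from 145, 144 and 216 to 394, 468 and 467 CPM (0.00233). Cidec, listed as a fat cell marker, went from 15.4, 13.2 and 23.7 to 136, 139.6 and 122 CPM (adjusted p = 2.51e-04), in libraries where the other 4 markers of that list were at or near 0.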
